A study of Arabidopsis thaliana with 6 samples.

Results

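In whole Arabidopsis thaliana seedlings of the mutant nar1-4, 72 of 22746 probe sets stood more than 1.5-fold below wild type in each of the study's 2 replicate numbers. They were chosen by exactly these differences, nar1-4 minus wild type within number 1 and within number 2, so their nar1-4 and wild-type values are a description and carry no test. The threshold itself was met by 78 probe sets (0.343% of all tested), of which 6 were set aside as a condition of the choice, namely those for AT5G14940, AT4G33720, AT4G07820, AT2G43590, APS4 and COR15A. Of the 72 members, 34 named 1 gene, 3 named several and 35 named none in the annotation used.

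The study compared 3 genotypes, nar1-4, nbp35-3 and wild type, all in the Col-0 background, with 2 arrays each, numbered 1 and 2. Whole seedlings were collected 2 weeks after imbibition from MS plates kept at 22 °C in 16 h light and 8 h dark. The labels write the mutants as nar1-4/- and nbp35-3/- without saying what the sign after the allele means or what kind of lesion each allele is, and for the nbp35 samples a source name reads nbp35-4 where title and genotype read nbp35-3, which was followed here. Labelling started from 250 ng of RNA per the labels, except for 3 samples with 200 ng, known only by codes that are not tied to a genotype.

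Iron-sulphur (Fe-S) clusters are cofactors of enzymes in metabolism, DNA replication and repair. In the cytosol of eukaryotes the P-loop NTPase NBP35 acts as a scaffold on which new clusters are built, and NAR1, a protein related to iron-only hydrogenases, takes part in passing them on to cytosolic and nuclear apoproteins. Loss of either gene's function is known to be severe in yeast and in plants. The annotation gave 0 probe sets for NAR1 and 0 for NBP35, so the transcripts of the mutated genes could not be used to check the labels.

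Arrays of 1 number resembled each other more than arrays of 1 genotype did. Over all probe sets the correlation was 0.987 to 0.994 between genotypes within a number and 0.968 to 0.970 between the arrays of a genotype. What arrays of 1 number have in common is not stated in the labels. The differences below are therefore given within each number as well as for the mean. In the limma fit, adjusted by Benjamini-Hochberg over all probe sets, 0 (0%) were called in nar1-4 against wild type, where 196 had an unadjusted p under 0.05, and 0 (0%) in nbp35-3 against wild type, where 139 did. With the number as a block, 0 were called again, and 1009 (nar1-4) and 1076 (nbp35-3) fell under that unadjusted p. Each of these unadjusted counts is below a 0.05 share of all probe sets, the share expected without any difference. The fit without the block counts the difference between the numbers as spread.

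Measured over all 72 members, the mean nar1-4 minus wild type difference ran from -2.23 to -0.63 with a median of -0.83, against -0.01 over all probe sets. In 6 members the difference was beyond 2-fold in both numbers. The difference was deeper in number 1 for 34 members and in number 2 for 38. Both nar1-4 arrays lay below both wild-type arrays for 44 members (11.4% of all probe sets did so), and in the other 28 the gap between the numbers made the genotypes overlap. The wild-type mean of 0 members lay under 3.48, the lowest first quartile of the 6 arrays, and the nar1-4 mean of 6 members did. In whole seedlings, fewer cells of a type and less RNA per cell cannot be told apart.

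The threshold cut through a continuum. Just inside it were 259705_at, at -0.59 and -0.98 within numbers 1 and 2, AT3G05640, at -0.96 and -0.60, and 257162_s_at, at -0.60 and -0.98. Just outside it were AT4G02090, at -0.593 and -0.583, AT1G73480, at -0.581 and -0.594, and AT1G53540, which encodes a small heat shock protein, at -0.5847 and -3.76. The opposite pattern, a difference past the threshold with opposite signs in the numbers, was seen in 11 probe sets that were lower in number 1 and 19 that were higher there, and 81 were higher than wild type in nar1-4 in both numbers.

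Genes of the cell wall and of directional growth were the first of 6 role groups among the 34 named members. This group held 5 members, the expansins EXPA16, EXPB1 and EXPB3, which loosen walls, the glycosyl hydrolase family 9 gene GH9B13, whose family includes wall-acting endoglucanases, and SP1L2, a relative of the microtubule-associated protein SPIRAL1. Their mean nar1-4 minus wild type differences ran from -1.36 to -0.65.

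SP1L2 stood at 5.82 and 5.21 in nar1-4 and 6.43 and 5.90 in nbp35-3, against 7.39 and 6.35 in wild type (log2 levels, numbers 1 and 2 in that order, as in all array values below). Its nar1-4 mean of 5.52 ± 0.43 and wild-type mean of 6.87 ± 0.74 (SD, n = 2 each) differed by -1.36, a 2.56-fold lower level. Both nar1-4 arrays lay below both wild-type arrays, and nbp35-3 lay between nar1-4 and wild type in each number.

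GH9B13 stood at 6.99 and 6.75 in nar1-4 and 8.27 and 6.38 in nbp35-3, against 8.71 and 7.67 in wild type. The nar1-4 and wild-type arrays did not overlap (mean difference -1.32, 2.5-fold lower in nar1-4), and nbp35-3 lay between them in number 1 and below nar1-4 in number 2. EXPA16 stood at 5.39 and 4.17 in nar1-4 and 5.18 and 5.25 in nbp35-3, against 6.75 and 4.90 in wild type. For EXPA16 the genotypes overlapped across the numbers, and nbp35-3 minus wild type was -1.57 in number 1 and 0.35 in number 2.

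Both beta-expansins were nearer to wild type in nar1-4 than SP1L2 and GH9B13. EXPB1 differed from wild type by -0.70 and -0.87 in nar1-4 within numbers 1 and 2, and by 0.24 and -1.38 in nbp35-3. EXPB3 differed by -0.63 and -0.68 in nar1-4 and by -0.22 and -1.04 in nbp35-3. Among 11 other wall-loosening genes listed separately from the members, 3 were measured and 0 were called in either mutant. Measured here means that the annotation used gave a probe set to that gene alone, and listed genes without one were not analysed here. The expansin gene EXPA8 differed by 0.51 and -0.92 in nar1-4 and the xyloglucan endotransglucosylase gene XTH33 by -0.13 and 1.0, so the signs differed between the numbers in both.

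Class III peroxidases, which oxidise phenolics in the wall, and dirigent proteins, which guide the coupling of phenoxy radicals, made a group of 3. AT3G01190, a peroxidase, stood at 7.79 and 7.21 in nar1-4 and 8.59 and 7.60 in nbp35-3, against 8.49 and 8.41 in wild type. AT4G13580, a dirigent family gene, stood at 7.01 and 5.82 in nar1-4 and 8.16 and 6.09 in nbp35-3, against 7.79 and 6.72 in wild type. AT4G30170, a second peroxidase, stood at 10.26 and 8.30 in nar1-4 and 11.08 and 8.59 in nbp35-3, against 10.87 and 9.12 in wild type. In the 3 genes nar1-4 was below wild type in either number, by the choice (from -1.20 to -0.61). Their nbp35-3 level was above wild type in number 1 (0.10, 0.37 and 0.21) and below it in number 2 (-0.81, -0.63 and -0.53). The same signs in nbp35-3 were seen in 26 of the 72 members and in 16 of the 34 named ones. Only for AT3G01190 were the nar1-4 and wild-type arrays free of overlap.

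Enzymes of specialised metabolism were the largest group, with 10 members and mean nar1-4 minus wild type differences from -1.68 to -0.72. AT3G29410, of the terpene synthase family, had the lowest mean difference of the named members. It stood at 5.96 and 4.42 in nar1-4 and 8.69 and 4.65 in nbp35-3, against 8.12 and 5.62 in wild type. The nar1-4 minus wild type difference was -2.16 and -1.20 within the numbers, and the nar1-4 mean was 3.2-fold lower. The genotypes overlapped across the numbers, as the nar1-4 array of number 1 lay above the wild-type array of number 2. Another gene of this family, AT1G31950, differed by -0.67 and -0.98 in nar1-4 and by 0.53 and -1.16 in nbp35-3.

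AT4G15390, an acyltransferase of the BAHD type, stood at 8.38 and 7.83 in nar1-4 and 9.27 and 8.38 in nbp35-3, against 8.99 and 9.15 in wild type, with no overlap between nar1-4 and wild type. AT3G50300, of the same acyltransferase family, differed by -0.66 and -0.84 in nar1-4 and by -0.01 and -1.21 in nbp35-3. AT3G51450, of the strictosidine synthase-like family, stood at 4.85 and 5.54 in nar1-4 and 5.17 and 6.30 in nbp35-3, against 6.03 and 6.23 in wild type. In number 2 nbp35-3 was thus level with wild type, and in number 1 it was nearer to nar1-4.

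AT1G09500, whose product resembles cinnamyl alcohol dehydrogenases, stood at 7.20 and 5.92 in nar1-4 and 6.19 and 7.42 in nbp35-3, against 7.84 and 7.0 in wild type. Its nbp35-3 level was the lowest of the genotypes in number 1 and the highest in number 2. AT2G32160, of a methyltransferase family, stood at 5.87 and 4.73 in nar1-4 and 6.48 and 4.62 in nbp35-3, against 6.56 and 5.71 in wild type. ATGSTF13, a phi class glutathione transferase, stood at 4.54 and 3.86 in nar1-4 and 5.77 and 3.75 in nbp35-3, against 5.37 and 4.47 in wild type. In both genes the nbp35-3 array lay below the nar1-4 array in number 2 only. The remaining enzymes were the glucosyltransferase UGT71C1, at -0.61 and -0.92 in nar1-4, and the oxoglutarate-dependent oxygenase family gene AT5G59530, at -0.93 and -0.61. Both were above wild type in nbp35-3 in number 1, by 0.42 and 0.39, and below it in number 2 (-0.66 and -0.07).

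Genes of transport and of arsenate handling numbered 3. AT3G21670, the NRT1/PTR family gene NPF6.4, stood at 5.88 and 8.38 in nar1-4 and 5.98 and 8.99 in nbp35-3, against 6.98 and 8.99 in wild type. Its nbp35-3 level was near nar1-4 in number 1 and equal to wild type in number 2 to the second decimal. AT2G16660, of the major facilitator family, showed a like pattern, at -0.96 and -0.67 in nar1-4 and -0.89 and -0.03 in nbp35-3. AT2G21045, an arsenate reductase gene, differed by -0.64 and -0.83 in nar1-4 and by -0.10 and -0.67 in nbp35-3. No other gene of nitrate uptake or reduction was set beside AT3G21670, since 0 of 8 listed had a probe set that the annotation used gave to that gene alone.

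Regulators and signalling genes numbered 5. AGL42, also known as FOREVER YOUNG FLOWER, encodes a MADS-box protein that represses floral organ senescence and abscission. It stood at 3.46 and 3.60 in nar1-4 and 5.18 and 3.93 in nbp35-3, against 5.09 and 4.33 in wild type, with no overlap between nar1-4 and wild type, and its nar1-4 array of number 1 was under the first-quartile level of 3.48. RALFL27, of the RALF family of secreted signalling peptides, stood at 4.92 and 4.49 in nar1-4 and 6.50 and 4.50 in nbp35-3, against 5.79 and 5.84 in wild type. The wild-type arrays of RALFL27 differed by little, while its nbp35-3 array stood above wild type in number 1 and level with nar1-4 in number 2.

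AT3G05640, a protein phosphatase 2C gene, stood at 5.10 and 5.15 in nar1-4 and 4.62 and 5.60 in nbp35-3, against 6.06 and 5.74 in wild type. AT1G51830, a leucine-rich repeat receptor-like kinase gene, differed by -0.63 and -0.81 in nar1-4 and by 0.04 and -1.54 in nbp35-3. AT4G34400, a B3 domain transcription factor gene, differed by -0.76 and -0.75 in nar1-4 and by -0.67 and -0.25 in nbp35-3. Its nar1-4 mean of 3.17 was below the lowest first quartile, so this difference is measured close to the lower end of the scale. The MADS-box gene AGL24, 1 of 10 listed flowering genes and the only one measured, differed by -0.41 and -1.07 in nar1-4 and was no member because number 1 missed the threshold.

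Hydrolases and surface proteins made up the last group of 8. AT4G17470, of an alpha/beta hydrolase family, stood at 5.11 and 6.38 in nar1-4 and 5.61 and 6.37 in nbp35-3, against 6.33 and 7.48 in wild type. It was the 1 named member that was past the threshold below wild type in both mutants and both numbers, at -1.23 and -1.10 in nar1-4 and -0.73 and -1.11 in nbp35-3. AT2G39850, a subtilisin-like protease gene, stood at 4.73 and 5.82 in nar1-4 and 5.35 and 6.26 in nbp35-3, against 5.69 and 6.93 in wild type. In AT2G39850 nbp35-3 lay between nar1-4 and wild type in each number.

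AT1G14220, a ribonuclease T2 family gene, stood at 5.46 and 4.00 in nar1-4 and 6.59 and 4.72 in nbp35-3, against 6.21 and 4.77 in wild type. AT2G23540, a GDSL-type esterase/lipase gene, stood at 7.34 and 6.45 in nar1-4 and 8.85 and 6.27 in nbp35-3, against 8.08 and 7.06 in wild type. The nbp35-3 level of AT1G14220 was thus above wild type or near it, and that of AT2G23540 was the highest of the genotypes in number 1 and the lowest in number 2. AT1G67870, a glycine-rich protein gene, was at -0.72 and -0.84 in nar1-4 and near wild type in nbp35-3, at 0.01 and -0.19. The GPI-anchored protein gene AT3G06035, the fructan exohydrolase gene cwINV6 and the glycosidase family gene AT1G24320 had mean nar1-4 minus wild type differences of -0.72, -0.65 and -0.64. In nbp35-3 they differed from wild type by -0.07 and -0.70 (AT3G06035), by -0.61 and 0.50 (cwINV6), with opposite signs in the numbers, and by -0.39 and -0.65 (AT1G24320). The nar1-4 mean of AT1G24320, 3.41, was also below the lowest first quartile.

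**Figure D1:**
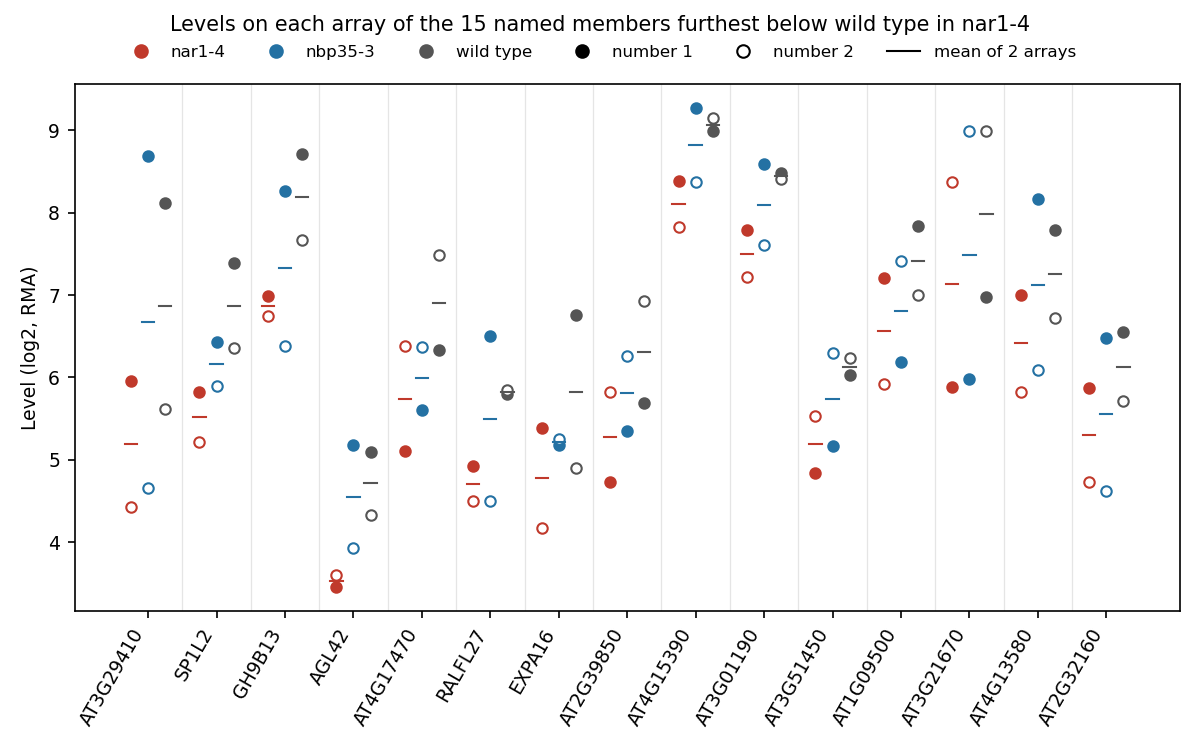
Levels on the log2 RMA scale (vertical axis) of the 15 named members with the lowest mean nar1-4 minus wild type difference, with nar1-4, nbp35-3 and wild type from left to right within each gene. Filled points are number 1, open points number 2 and bars the mean of 2 arrays; nar1-4 is below wild type for every pair of 1 number, while AT3G29410, AT3G21670, AT4G13580, AT2G32160 and AT2G39850 differ on average more between the numbers than between nar1-4 and wild type.

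The 35 members that named no gene had a median nar1-4 minus wild type difference of -0.86, against -0.83 over all members. The lowest, 247691_at, stood at 4.29 and 3.83 in nar1-4 and 5.38 and 4.30 in nbp35-3, against 6.22 and 6.37 in wild type, a 4.69-fold lower mean in nar1-4. Its wild-type arrays were alike, and both mutants lay below both of them. By contrast 245496_at stood at 4.88 and 5.01 in nar1-4, against 6.59 and 6.22 in wild type, with nbp35-3 at 6.20 and 6.49, near wild type.

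The nbp35-3 levels of the members were set beside these values to see whether the second assembly mutant had them low as well. Both comparisons use the same wild-type arrays, and members chosen with high wild-type values tend to lie below wild type in any other genotype, so the counts that follow are a description and no test was made. The median nbp35-3 minus wild type difference over the 72 members was -0.47, against 0.01 over all probe sets, and it was -0.26 within number 1 and -0.66 within number 2. The nbp35-3 mean was nearer to nar1-4 than to wild type for 41 members, and for 17 of the 34 named ones.

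The members' nbp35-3 minus wild type differences were not alike in the numbers. Each number holds 1 array per genotype, so an effect of the number cannot be told apart from spread between arrays. Over all probe sets this difference correlated between the numbers at -0.05 (Pearson), and over the members at -0.22. In number 1, 45 members were below wild type (47.4% of all probe sets were) and 28 were more than 1.5-fold below it (1.37%), while 3 were more than 1.5-fold above it (1.35%). In number 2, 64 were below wild type (48.4%) and 41 were more than 1.5-fold below it (4.96%), while 0 were that far above it (3.82%). Both numbers gave a level below wild type for 38 members (23.3%), while 26 were above wild type in number 1 and below it in number 2, 7 the reverse, and 1 above in both. Placed between the other genotypes, nbp35-3 lay between nar1-4 and wild type in both numbers for 20 members and below nar1-4 in both for 3. Neither these placements nor the nearer genotype given above were counted over all probe sets. The members were chosen for a wide gap between nar1-4 and wild type, so these counts are a description.

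Past the threshold below wild type in nbp35-3 in both numbers were 11 members, 15.3% of the 72, against 0.273% of all probe sets. The choice used the same wild-type arrays, so this share was not tested. Mean nbp35-3 minus wild type differences of the 11 ran from -1.91 to -0.79. Past the threshold above wild type in both numbers were 0 members, against 0.127% of all probe sets. AT4G17470 was 1 of the 11 and the other 10 named no gene. Of these, 259813_at stood at 7.04 and 5.12 in nar1-4 and 6.13 and 4.83 in nbp35-3, against 7.89 and 6.90 in wild type. The bright probe set 259640_at stood at 9.85 and 10.74 in nar1-4 and 9.45 and 10.72 in nbp35-3, against 11.01 and 11.40 in wild type. For both of these, nbp35-3 was the lowest genotype in each number.

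**Figure D2:**
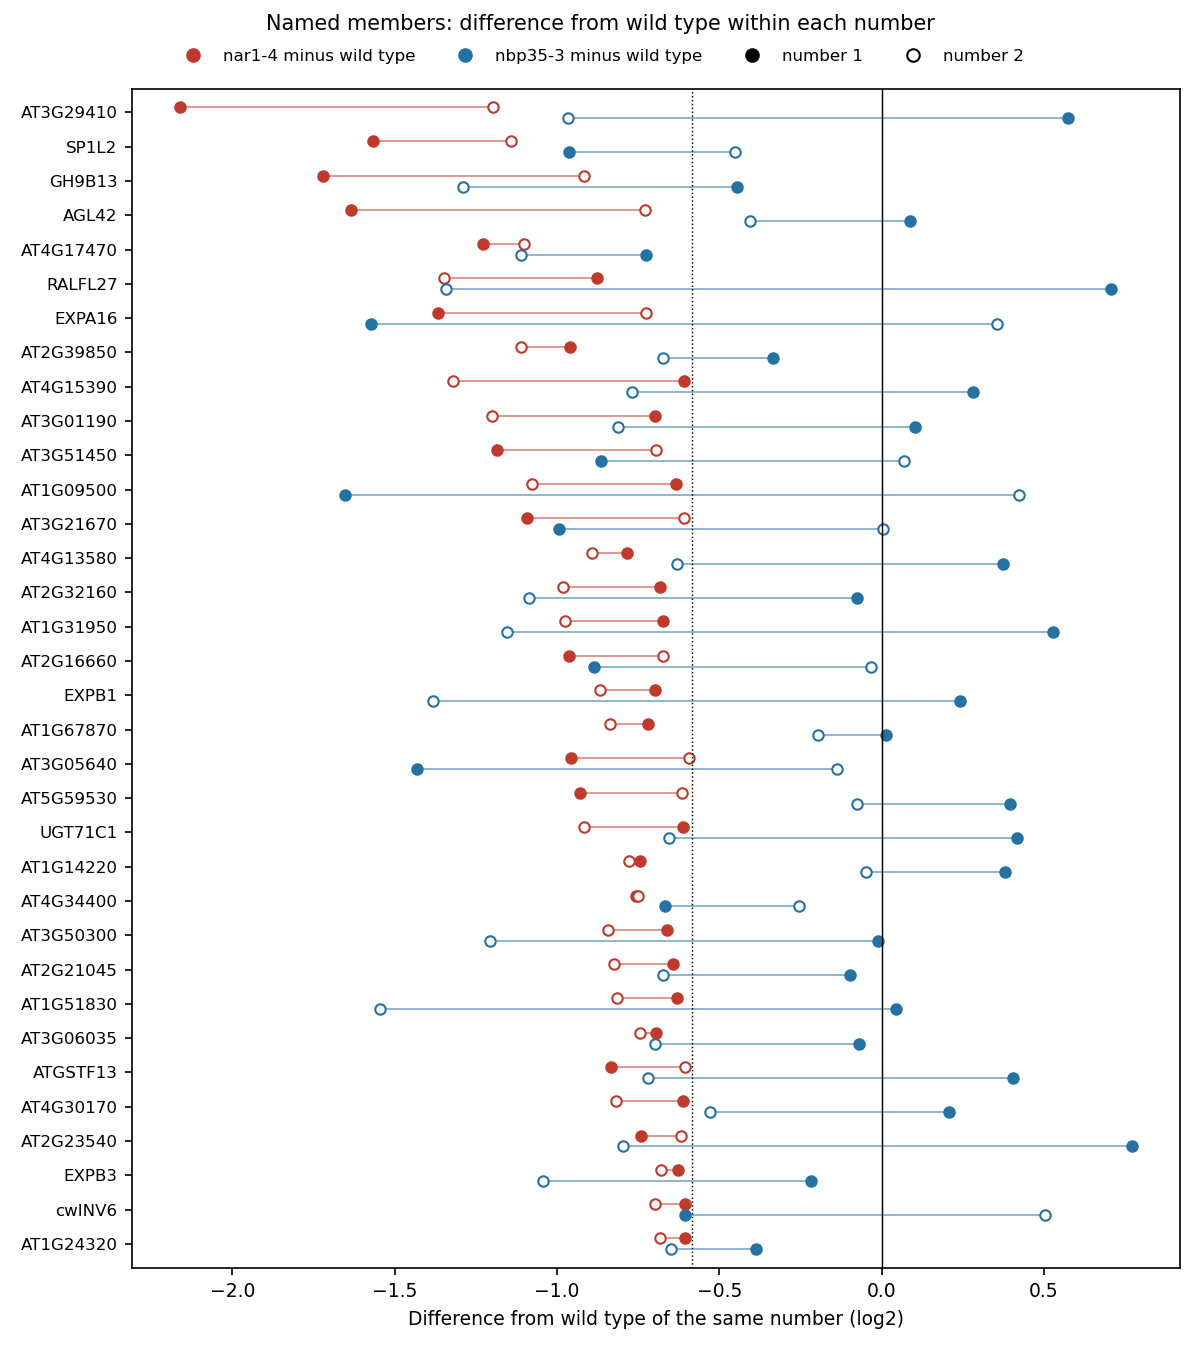
Difference from the wild-type array of the same number (horizontal axis, log2) for the 34 named members, with nar1-4 above nbp35-3 within each row, filled points for number 1 and open points for number 2. The dotted line is the 1.5-fold threshold, left of which all nar1-4 points lie by construction; the nbp35-3 points spread from -1.65 to 0.77, and AT4G17470 alone has both of them left of the line.

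The size of a member's difference between the replicate numbers was not used in the choice, since it sums over the genotypes. The spread it is tested against includes how far nar1-4 minus wild type differed between the numbers, values that the choice did use. The member calls and p-values below are therefore not independent of the choice. Named members that were higher in number 2 included AT3G21670, EXPB3, AT2G39850 and AT4G17470, and those lower in number 2 included a peroxidase and a dirigent gene, several enzymes of specialised metabolism and SP1L2. With limma and adjustment over all probe sets, 15 members were called higher in number 2 (12.3% of all probe sets) and 18 lower (11.2%), 33 in all or 45.8% of the 72, against 23.4% of all probe sets. The median size of the difference, without its sign, was 0.68 over the members and 0.21 over all probe sets. Without the genotype term 19 members were called, 26.4% against 25.7% of all probe sets. That fit counts the nar1-4 minus wild type difference as spread, and the members were chosen for a large one. Its share therefore cannot judge the excess seen with the term. Leaving out an array left 1 array of that genotype, which carries no weight in the difference, so no counts are given for those fits. Without an nbp35-3 array, the residual spread came only from nar1-4 minus wild type between the numbers, the values that chose the members. A choice by large differences favours probe sets with a wide spread, and whether that accounts for the share called was not tested.

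Higher in number 2 by the largest margin among the named members was the NRT1/PTR family gene AT3G21670, at a mean of 8.79 in number 2 and 6.28 in number 1 (log2 2.51 ± 0.19, SE, limma adjusted p = 0.00189). The protease gene AT2G39850 was at 6.34 and 5.26 in numbers 2 and 1 (log2 1.08 ± 0.11, limma adjusted p = 0.00347), and the hydrolase gene AT4G17470 at 6.74 and 5.68 (1.06 ± 0.13, limma adjusted p = 0.00542). Each of these 3 was higher in number 2 in all 3 genotypes. EXPB3 was the other named member called higher, at 7.56 and 6.65 in numbers 2 and 1.

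Lower in number 2 were 11 named members, 5 of them enzymes of specialised metabolism. The terpene synthase family gene AT3G29410 had a mean of 4.90 in number 2 and 7.59 in number 1 (-2.69 ± 0.44, SE, limma adjusted p = 0.0118), and the peroxidase gene AT4G30170 8.67 and 10.73 (-2.06 ± 0.16, limma adjusted p = 0.00189). The ribonuclease gene AT1G14220 was at 4.50 and 6.08 (-1.59 ± 0.12, limma adjusted p = 0.00192), and each of the 3 was lower in number 2 in all 3 genotypes. AT2G23540, AT4G13580, AT2G32160 and ATGSTF13 differed by -1.50, -1.44, -1.28 and -1.20 on the log2 scale, and AT5G59530, UGT71C1, cwINV6 and SP1L2 by -0.99 to -0.73. The 3 regulators AGL42, RALFL27 and AT4G34400, with differences of -0.63, -0.79 and -0.39, were not called, nor were the other 2 of their group.

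**Figure D3:**
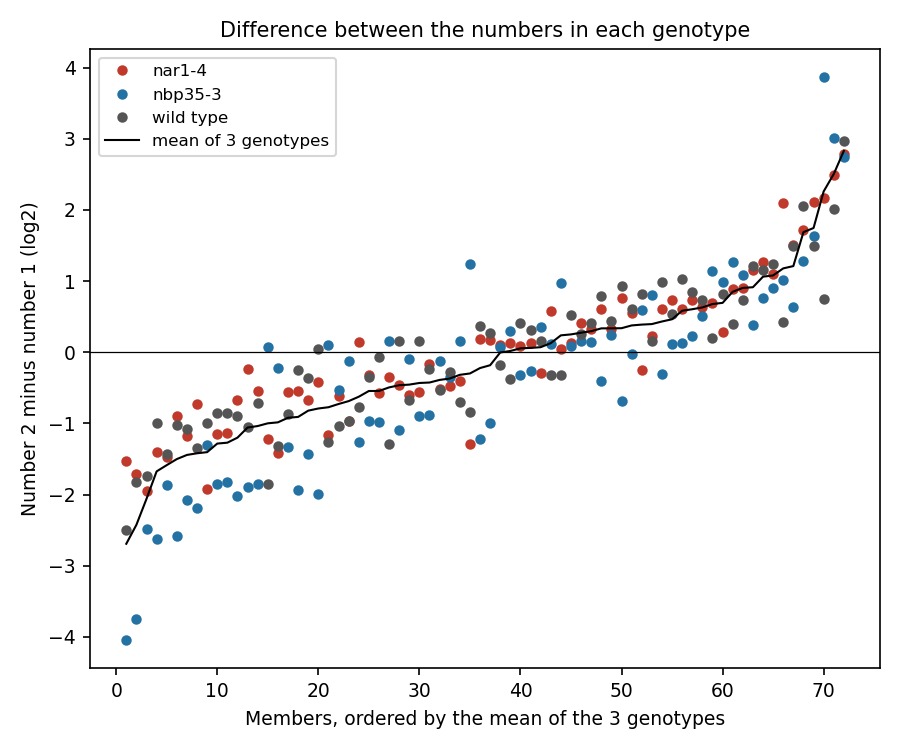
Number 2 minus number 1 (vertical axis, log2) for each of the 72 members, ordered along the horizontal axis by the mean of the 3 genotypes, which is the black line. Points are single differences of 2 arrays for nar1-4, nbp35-3 and wild type; the means run from -2.69 to 2.83, and nbp35-3 reaches from -4.04 to 3.86, wider than nar1-4 (-1.95 to 2.79) and wild type (-2.50 to 2.97).

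Members lower in number 2 and members higher in it had different nbp35-3 levels in number 1. Of the 18 called lower in number 2, 14 were above wild type in nbp35-3 in number 1 (median difference 0.38) and 16 were below it in number 2 (median -0.64). Of the 15 called higher in number 2, 1 was above wild type in number 1 (median -0.73) and 13 were below it in number 2 (median -0.76). The nbp35-3 arrays enter both quantities, so this is a description of the same values. The 14 members include AT3G29410, AT4G13580, AT4G30170 and AT2G23540, whose nbp35-3 arrays of number 1 were the highest of all arrays.

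**Figure D4:**
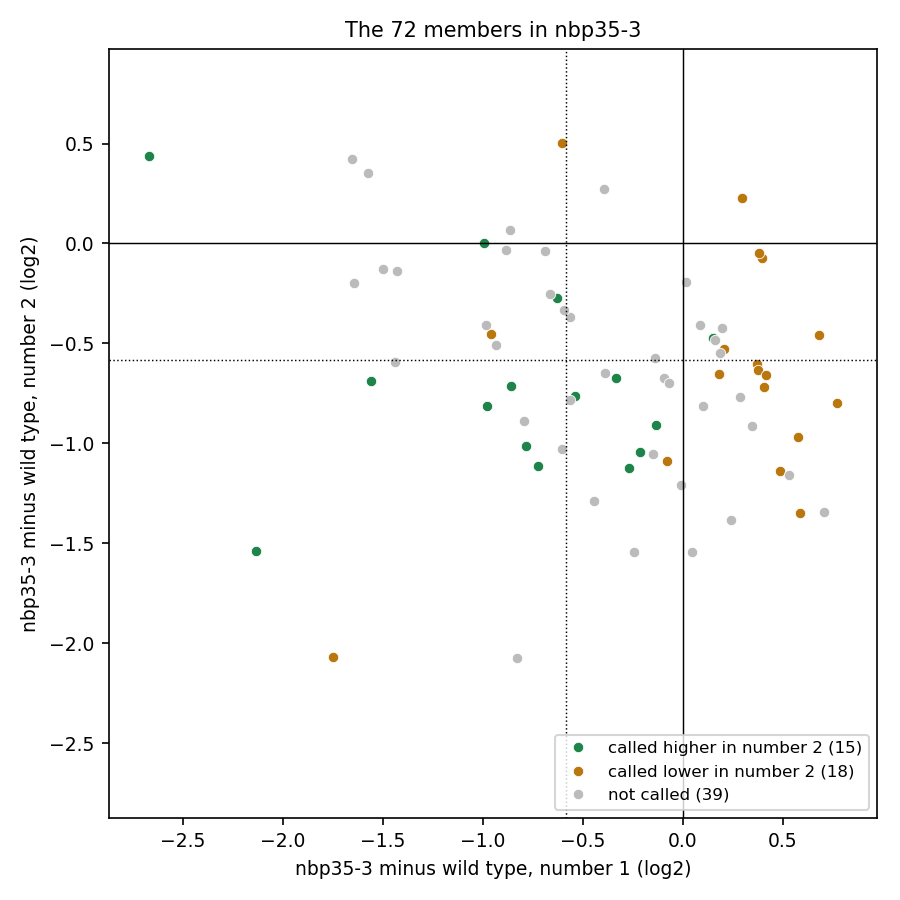
Difference of nbp35-3 from wild type within number 1 (horizontal axis, log2) and within number 2 (vertical axis, log2) for the 72 members, coloured by the call between the numbers, with dotted lines at the 1.5-fold threshold. The 18 members called lower in number 2 lie mostly right of 0 and below 0, the 15 called higher lie mostly left of 0 and below 0, and 11 members lie past both dotted lines.

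Markers of organs and stages were set beside the members, since whole seedlings could hold organs in different shares. Of 14 leaf and photosynthesis genes 3 were measured, RCA, LHCB4.1 and PRK, with mean nar1-4 minus wild type differences of 0.06, 0.10 and 0.07. Their log2 summed level was 14.47 and 14.63 in nar1-4, 14.44 and 14.58 in nbp35-3 and 14.43 and 14.52 in wild type. Of 14 root genes 3 were measured. PYK10, an abundant beta-glucosidase of roots, differed by -0.30 and 0.03 in nar1-4, and the root hair expansins EXPA7 and EXPA18 by -0.05 and -0.08 and by 0.07 and 0.22. Their log2 summed level was 11.74 and 12.20 in nar1-4, 11.87 and 12.04 in nbp35-3 and 12.04 and 12.17 in wild type. This sum is nearly that of PYK10 alone, at 11.70 and 12.17 in nar1-4 and 12.01 and 12.14 in wild type, so it says little about the root hair expansins.

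In nbp35-3 the root hair expansins were above wild type in number 1 and below it in number 2. So were 26 of the 72 members, among them the peroxidase and dirigent genes. EXPA7 differed from wild type by 0.65 and -0.52 in nbp35-3, and EXPA18 by 0.80 and -0.15, while PYK10 differed by -0.20 and -0.13. The part of root tissue in the members' nbp35-3 levels was not tested. The 2 measured seed genes of 9, M10 and M17, lay under the first quartile in nar1-4 and wild type, and M17 stood at 3.99 in nbp35-3 of number 2 and at 2.18 to 2.71 on the other 5 arrays.

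Pathway lists written beside the members covered 17 themes and 210 genes, of which 33 were measured, and 3 lists, for phosphate starvation, nitrate and cytosolic Fe-S assembly, had 0 measured genes. In the limma fit 0 of the 33 were called in nar1-4 and 0 in nbp35-3, and 0 were members. Several lists nonetheless held genes below wild type in nar1-4. Of 4 measured cold and dehydration genes all had a lower mean (median -0.36), with COR15A, set aside above, at -2.19 and -0.62 and the dehydrin gene LTI30 at -1.01 and 0.14. Both flavonoid genes measured were lower on average, DFR at -2.58 and 0.21 and UF3GT at -0.77 and 0.01, so that number 1 carried the difference. Of the sulphate assimilation genes, APS3 and SIR were close to wild type in nar1-4, at -0.10 and 0.08 and at -0.07 and 0.01, beside APS4 at -0.99 and -0.68.

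Heat shock, jasmonate and defence genes had lower nar1-4 minus wild type medians in number 2 than in number 1. The 3 heat shock genes had medians of -0.11 and -0.65 within numbers 1 and 2, with ATHSP22.0 at -0.11 and -0.86 and HSA32 at -0.53 and -0.42. The 3 jasmonate genes had medians of 0.40 and -1.52, with the defensins PDF1.2b at 0.40 and -2.25 and PDF1.2 at 1.15 and -1.52. GRX480, the only measured gene of 16 in the salicylic acid list, was at -0.13 and -1.51. Glucosinolate synthesis was represented by BCAT4, at -0.19 and -0.22. The clock genes COR27 and GI were at 0.12 and 0.50 and at -0.04 and -0.29. Wild-type COR27 stood at 9.22 and 3.61, so its number 2 difference was measured near the first-quartile level of 3.48. The iron deficiency genes BHLH101 and PYE were higher in nar1-4 in both numbers, at 0.62 and 2.09 and at 0.14 and 0.67. Between the numbers, 5 of the 33 measured list genes were called higher in number 2 (12.3% of all probe sets were) and 2 lower (11.2%). Among them were BCAT4 and BHLH101 (log2 3.16 and 3.59) and COR27 (-5.17).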

How the data were processed

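The authors' deposited file gives 1 log2 level for each of 22810 probe sets and each of 6 arrays. Per the submitters' processing notes these are RMA levels. That method corrects background, brings the arrays to 1 distribution and joins the probes of a set, and so removes differences in total RNA. The sources used here give no RMA version. Levels were used as deposited. The file gives no background signal, and precision is limited by the number of arrays.

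With 64 control probe sets set aside, 22746 remained, of which the platform's annotation table named 1 gene for 13513, several for 503 and none for 8730. Symbols were updated through RefSeq's gene table (TAIR10.1). Genome coordinates were not used here.

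All probe sets were fitted with limma 3.58.1 under R 4.3.3 (moderated tests, two-sided, Benjamini-Hochberg adjustment over all 22746, threshold 0.05). Genotypes were compared with 1 mean each (3 residual degrees of freedom). Replicate number 2 was compared with number 1 with the genotype as a term (2 residual degrees of freedom). The estimate was orthogonal to the nar1-4 minus wild type differences, but its residual spread was not. The fits were run on simulated data with independent noise and a large shift in some probe sets. The simulated genotype shifts had no number difference beside them, so the run checks the code and not the setting of these data. Further values were computed in Python 3.11.15 with pandas 2.3.3. The alternatives were a trended prior, a filter on dim probe sets, median centring, a block for the number, no genotype term, a 2-fold threshold and leaving out each array or number.

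The members, the gene lists and the naming rule were chosen with earlier results of these data known. By that rule, array values are given for the 15 members naming 1 gene that had the lowest nar1-4 minus wild type mean, for any such member past the threshold in nbp35-3 in both numbers, for the 10 of them called between the numbers with the largest difference, and differences for the 3 members just inside and 3 probe sets just outside the threshold. Array values of probe sets without a gene name, and of AT3G05640, were added after their values were seen. The role groups were formed from the members and carry no test. Biological replicates is the design text's term for the 2 arrays of each genotype, without naming separate cultures. In the genotype comparisons, p-values measure the spread between the 2 arrays of a genotype. Between the numbers, they measure how far the number difference varied among the 3 genotypes.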

Additional observations from a re-analysis of the deposited data

Results flagged for a closer look

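One member stood on opposite sides of wild type in the mutants within each number. Probe set 258941_at, which names no gene, was at 5.31 and 4.82 in nar1-4 and 6.29 and 5.94 in nbp35-3, against 5.99 and 5.71 in wild type, so across the numbers nbp35-3 and wild type overlapped. Its nbp35-3 minus wild type mean was 0.26, with 0.30 and 0.23 within numbers 1 and 2, and its nar1-4 differences were -0.68 and -0.89. The difference between the mutants was not tested, since the member was chosen for its nar1-4 level.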

How the results depend on the processing

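With a 2-fold threshold in place of 1.5-fold there were 6 members, with a median nbp35-3 minus wild type difference of -0.76 and 0 members past the threshold in nbp35-3 in both numbers. With dim probe sets left out there were 40 members, 5 of them past it. Median centring gave 70 members. With 1 number alone the rule chose 329 to 621 probe sets, with medians of -0.55 to -0.22 and 98 to 288 past the threshold in nbp35-3. Between the numbers, leaving out an array gave 1715 to 5816 called probe sets and 18 to 47 called members, with 1 pair of arrays then carrying no weight in the difference. Without the genotype term 19 members (26.4%) and 5844 of all probe sets (25.7%) were called. The excess of the members seen with the term was then not seen. That fit counts the difference that chose the members as spread, so it cannot judge the excess. Under each alternative run, 0 probe sets were called in nar1-4 or nbp35-3 against wild type. With the replicate block these counts were 0 and 0, the smallest adjusted p was 0.155 and 0.306, and deviations from the genotype means correlated between same-numbered arrays at 0.814 (nar1-4 and wild type) and 0.694 (nbp35-3 and wild type), a hint from the data that a number is shared. With 2 arrays a genotype, the SD of a level rests on 1 difference.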
